A study of Mus musculus with 6 samples.

Results

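Transcripts of the SLC25 family, the carriers of the mitochondrial inner membrane, were followed in calf muscle of aged mice. Members were the protein-coding genes whose symbol begins with Slc25a and whose value averaged at least 1 over the 6 libraries. This kept 46 of 47 such genes, among 20311 genes that passed the same filter and 26294 in the table. The ADP/ATP carrier gene Slc25a31 lay just inside that limit, with a mean of 1.01, and the related Slc25a54 lay just outside, with a mean of 0.541.

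SLC25 proteins share a fold of repeated membrane-spanning segments and exchange solutes across the inner membrane, which is otherwise closed to most metabolites. They bring ADP and phosphate in and ATP out, pass acylcarnitines to beta-oxidation, move the intermediates of the malate-aspartate shuttle, and supply the matrix with amino acids, nucleotides, cofactors and iron. In muscle, where much ATP is made and spent, the ADP/ATP and phosphate carriers are among the most abundant proteins of the inner membrane.

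The study asked whether nobiletin (NOB), a citrus flavonoid that acts on ROR nuclear receptors of the circadian clock, changes muscle gene expression under a high-fat diet. By the labels, male C57BL/6 mice were bought at 21 to 22 months of age, ate the high-fat diets for 5 to 6 months and were 24 to 26 months old when sampled, ages and durations that do not add up exactly. The groups were a high-fat diet with 0.1% NOB (HF.NOB), the high-fat diet without it (HF) and a regular diet (RD), each at ZT18, in the dark active phase, and at ZT6, in the light resting phase, where ZT counts hours from lights on. Both high-fat diets came from one maker and the regular diet from another, so fat content and the other ingredients changed together between HF and RD. All groups shared strain, sex and age, and no group carried a mutant allele.

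Each of the 6 conditions had 1 library, so a fold between 2 libraries has no replicate error, and its 95% interval covers counting error only. The libraries held 23248663 to 31837501 reads on genes, and values are those reads multiplied by 1 factor per library, called scaled reads here. A fold is log2 of (value + 1) in the first-named group over (value + 1) in the other, which understates changes of genes with few reads. Muscle fibre markers made up 11.3% to 13.8% of reads in every library. Folds against the ZT6 HF.NOB library followed transcript length, so they are set beside the median fold of genes of similar length, subtracted where stated. The same library had a summed red blood cell marker level of 14519 scaled reads, against 1575 to 5429 in the other libraries, and the ZT18 HF library had 1626 scaled reads of liver markers, against 2.67 to 13.3 elsewhere. Fewer cells of a type and less RNA per cell cannot be told apart in such bulk samples.

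The carriers spanned a wide range of abundance. The median member averaged 379 scaled reads, against 108 over all genes tested, 13 members averaged at least 1000, 36 at least 50 and 7 under 10. The median of their longest annotated transcripts was 2823 nt, close to the 2870 nt of all genes tested. Per kilobase of the longest transcript, Slc25a4, the ADP/ATP carrier of heart and muscle, took 72.2% of the summed level of the family, and with the median length of each gene's transcripts it took 50.2%. The phosphate carrier gene Slc25a3 took 7.23%, the oxoglutarate/malate carrier gene Slc25a11 5.80% and Slc25a12, an aspartate/glutamate carrier of the malate-aspartate shuttle, 3.12% per kilobase of the longest transcript. With the median length these shares were 12.3%, 7.46% and 14.5%, so the order of those members depended on the transcript assumed.

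Isoform pairs were unequal. Per kilobase of the longest transcript, the mean level of Slc25a4 was 61.8 times that of Slc25a5, the ADP/ATP carrier of many proliferating tissues. The level of Slc25a12 was 174 times that of Slc25a13, its counterpart of liver, and that of Slc25a39 was 21.7 times that of Slc25a40, both of which are linked to glutathione import. The mitoferrin genes Slc25a28 and Slc25a37, whose products bring iron into the matrix, lay closest together, with a ratio of 1.66. With the median length of each gene's transcripts the ratios were 59.3, 282, 27.9 and 2.80 in the same order. Slc25a4 and Slc25a5 are closely similar in coding sequence, and how reads shared by such copies were counted is not given in the sources used here, so their split is uncertain.

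The 10 remaining members averaged fewer than 50 scaled reads. Of these, the uncoupling-protein-like Slc25a14, the orphan Slc25a53 and the liver-type Slc25a13 had 28.7 to 60.1 scaled reads in every library. The glutamate carrier gene Slc25a18, the ornithine carrier gene Slc25a2 and the orphan Slc25a48 had between 0.998 and 12.01. Slc25a43, the ATP-Mg/phosphate carrier gene Slc25a41, the oxodicarboxylate carrier gene Slc25a21 and Slc25a31 had at most 3.99, and no fold is read from them.

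**Figure D1:**
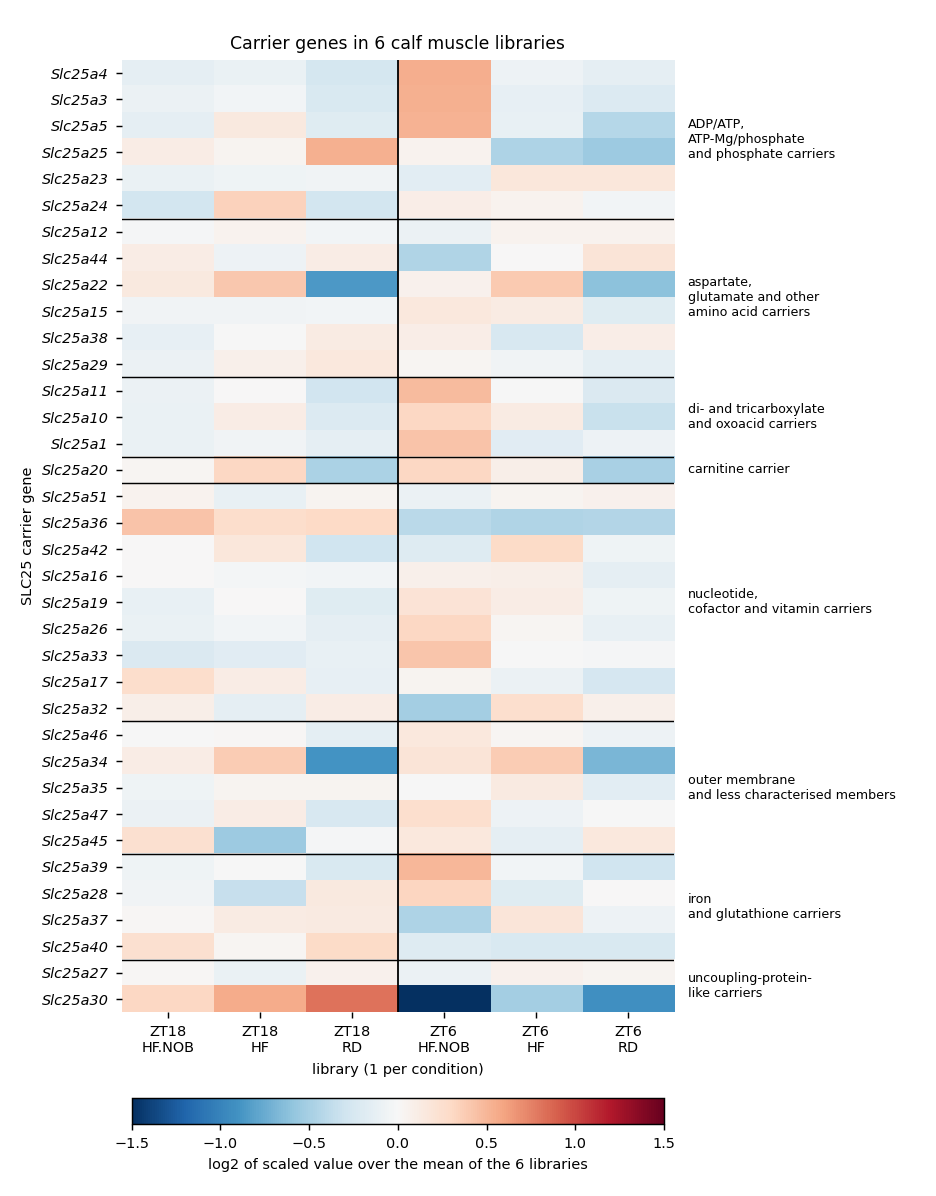
Scaled value of the 36 carriers with a mean of at least 50 in each of the 6 libraries (columns, ZT18 left of ZT6), as log2 over the member's mean of the 6 libraries (colour), grouped by role. Slc25a34, Slc25a22 and Slc25a20 are lowest in both RD libraries, Slc25a36 and Slc25a30 are lowest in the 3 ZT6 libraries, and Slc25a4, Slc25a3 and Slc25a5 are highest in the ZT6 HF.NOB library.

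High-fat feeding was accompanied by higher levels of a small group of carriers at both times. With the 2 times as replicates, edgeR's quasi-likelihood test called 6 of 39 members tested at an adjusted p under 0.05, where 7.92% of all 14675 genes tested were called. The 5 that rose in HF muscle were Slc25a34, Slc25a22, Slc25a20, Slc25a42 and Slc25a5, where 4.33% of all genes were called higher, and Slc25a28 fell (3.59% of all genes called lower). These p-values rest on 2 libraries a group and 1 residual degree of freedom, and measure only the spread between these libraries. When the spread was estimated over all 6 libraries, edgeR called 0 genes of any kind for this contrast, with 619 genes at an unadjusted p under 0.05, and the adjusted p of Slc25a34 was 0.58. DESeq2 on the same 4 libraries called 3 of the 6, Slc25a34, Slc25a22 and Slc25a20, where it called 1.88% of all genes. edgeR was also run with the ZT18 HF.NOB library added to the 4, so that only the ZT6 HF.NOB library was left out. The added library was alone in its diet group, so the HF over RD folds still rested on the same 4 libraries. They were nearly unchanged, at 1.18 for Slc25a34, 1.15 for Slc25a22 and 0.69 for Slc25a20, and are no separate check.

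Slc25a34, an inner membrane member of uncertain substrate, had at ZT18 924 scaled reads in HF.NOB muscle, 1110.0 in HF and 456 in RD, and at ZT6 976 in HF.NOB, 1114 in HF and 531 in RD. Both RD libraries lay below all 4 high-fat libraries, without overlap. The HF over RD fold was 1.28 (95% counting interval 1.11 to 1.45) at ZT18 and 1.07 (0.90 to 1.24) at ZT6 on the log2 scale, and 1.18 in edgeR's fit of both times (adjusted p = 3.5e-06).

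Slc25a22, a glutamate carrier that feeds the matrix with glutamate, was similar in size and pattern. It had at ZT18 852 scaled reads in HF.NOB, 1021 in HF and 424 in RD, and at ZT6 808 in HF.NOB, 1014 in HF and 500.4 in RD. The groups again did not overlap, and both HF libraries were the highest of their time. Its fold, HF over RD, was 1.26 (1.09 to 1.44) at ZT18 and 1.02 (0.85 to 1.19) at ZT6, and edgeR gave 1.15 (adjusted p = 4.9e-06).

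Slc25a20 encodes the carnitine/acylcarnitine carrier, which exchanges acylcarnitines for free carnitine and so delivers fatty acids to beta-oxidation. Its levels at ZT18 were 2887 scaled reads in HF.NOB, 3489 in HF and 2023 in RD, and at ZT6 they were 3502 in HF.NOB, 3002 in HF and 2020.4 in RD. Both RD libraries were almost equal and stood below all others. The HF over RD fold was 0.79 (0.70 to 0.87) at ZT18 and 0.57 (0.48 to 0.66) at ZT6, with 0.69 in edgeR's fit (adjusted p = 8.4e-05).

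Slc25a42 encodes a carrier that brings coenzyme A into the matrix in exchange for adenine nucleotides. It had at ZT18 1510.0 scaled reads in HF.NOB, 1687 in HF and 1217 in RD, and at ZT6 1311 in HF.NOB, 1832 in HF and 1433 in RD. HF was above RD at both times, by 0.47 (0.36 to 0.59) at ZT18 and 0.35 (0.25 to 0.46) at ZT6 on the log2 scale, while the ZT6 HF.NOB library lay below the RD library of that time. In edgeR's fit the fold was 0.42 (adjusted p = 0.0035).

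Slc25a5 had smaller differences in the same direction, with 1145 scaled reads in HF and 912 in RD at ZT18 and 955 in HF and 770.0 in RD at ZT6. Its edgeR fold was 0.33 (adjusted p = 0.022). Slc25a28, the mitoferrin of most tissues, went the other way, with 771 scaled reads in HF and 1088 in RD at ZT18 and 865 in HF and 981 in RD at ZT6, an edgeR fold of -0.33 (adjusted p = 0.038). The ZT6 HF.NOB library had the highest level of both genes, 1482 scaled reads of Slc25a5 and 1231 of Slc25a28.

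**Figure D2:**
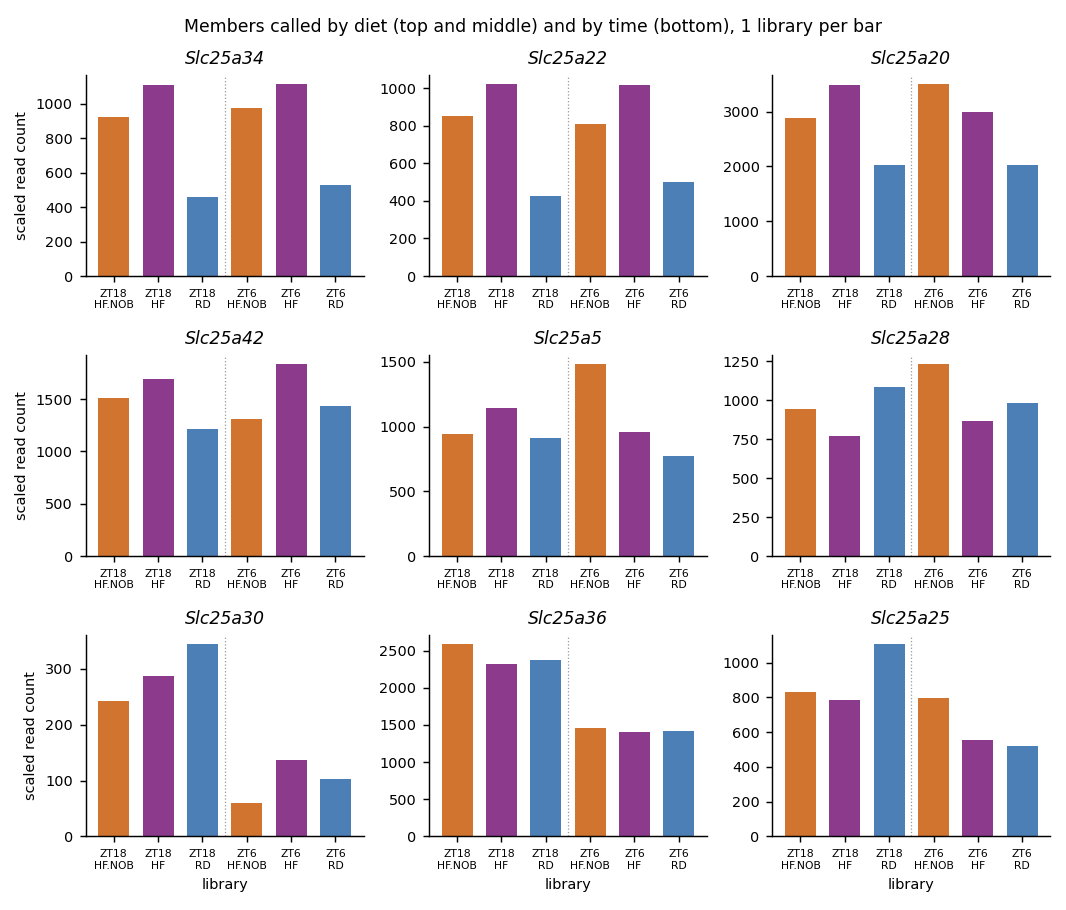
Scaled read count (bars, from 0) of the 6 carriers called by diet in the top and middle rows and the 3 called by time in the bottom row, in each of the 6 libraries, 1 library per bar with no replicate error. Slc25a34 and Slc25a22 stand at 424 to 531 in both RD libraries and at 808 or more in the other 4, and Slc25a36 stands at 2315 or more at ZT18 and at 1456 or less at ZT6.

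Counted without a test, 12 of 46 members (26.1%) had all 4 high-fat libraries above both RD libraries, where 8.79% of all genes did, and 3 (6.52%), Slc25a18, Slc25a38 and Slc25a44, had all 4 below, where 7.84% of all genes did. Slc25a18 had only 4 to 9 reads in each library before scaling, and Atp6v1e1, averaging 2599 scaled reads, overlaps it on the other strand. Its separation is therefore not read. The 12 all averaged at least 50 scaled reads, and they made up 33.3% of the 36 members of that level, against 10.5% of all genes of that level. They were Slc25a34, Slc25a22, Slc25a20 and Slc25a5 described above, the substrate carriers Slc25a10 and Slc25a11, the phosphate carrier Slc25a3, the glutathione-linked Slc25a39, the S-adenosylmethionine carrier Slc25a26, the peroxisomal carrier Slc25a17, Slc25a16, and Slc25a46 of the outer membrane. On the other strand Rnf167 (mean 1063) overlaps Slc25a11 and Lrig1 (mean 2516) overlaps Slc25a26. The sources used here do not say whether reads were counted by strand, so such reads cannot be told apart. Slc25a10, Slc25a16, Slc25a17, Slc25a26 and Slc25a46 fell outside the naming rule and are named after their values were seen. Without the ZT6 HF.NOB library the count was 13 members (28.3%), with 14.7% of all genes. These counts rest on 2 RD libraries, and markers of other cells moved with diet. All 6 adipocyte markers were detected in every library, with a summed level of 2261 to 5536 scaled reads in high-fat libraries and 1324 to 1386 in RD libraries. In HF over RD, 5 of the 6 were higher at each time, while Cfd was lower, at 659 in HF and 705 in RD at ZT18 and 595 in HF and 877 in RD at ZT6. Of 7 macrophage and leukocyte markers 6 were higher in HF at ZT18 (median fold 0.24) and 7 at ZT6 (median 0.55). All 5 red blood cell markers were lower in HF, with a summed level of 2094 in HF and 4377 in RD at ZT18 and of 1575 in HF and 5429 in RD at ZT6. The part of these transcripts in the carrier levels was not tested.

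The median fold of the family between HF and RD was small, but at ZT6 most members were higher in HF. At ZT6 the median fold of the 46 members was 0.13, with 33 higher and 13 lower. Over all genes tested the median was -0.00, with 48.09% of genes higher. At ZT18 the median of the members was 0.07, with 26 higher and 20 lower, against -0.00 and 47.96% of all genes. Among the 36 members with a mean of at least 50, 27 were higher and 9 lower at ZT6, and 20 higher and 16 lower at ZT18. The difference between these shares was not tested. At ZT6, 7 members were at least 1.5-fold higher, where 12.3% of all genes were, and 2 at least 1.5-fold lower, where 11.6% were. At ZT18 these counts were 6, where 15.7% of all genes were, and 2, where 11.9% were. Most of those members had few reads, and among the 36 with a mean of at least 50 there were 2 higher and 0 lower at ZT6 (Slc25a34 and Slc25a22) and 4 higher and 0 lower at ZT18, where Slc25a20 and the ATP-Mg/phosphate carrier gene Slc25a24 joined them. Slc25a24 had a value of 179 scaled reads in HF at ZT18, against 115 in RD, and 146 in HF at ZT6, against 136 in RD. The ZT18 HF library was alone in that excess, and it is also the library with liver transcripts, whose part in this value was not tested. Slc25a47, a carrier of liver, named after its values were seen, had 119 scaled reads in HF, 104 in HF.NOB and 93.9 in RD at ZT18. At ZT6 it had 105, 132 and 111 in the same order. The liver-type Slc25a13 had 48.5, 28.7 and 38.5 in that order at ZT18, and 49.9, 45.3 and 29.4 at ZT6. The part of liver transcripts in either gene was not tested.

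By role, the high-fat differences were spread over several groups. Among the di- and tricarboxylate and oxoacid carriers with a mean of at least 50, Slc25a10, for dicarboxylates, had HF over RD folds of 0.31 (-0.06 to 0.68) at ZT18 and 0.45 (0.07 to 0.84) at ZT6, and Slc25a1 had 0.09 (-0.35 to 0.53) and -0.10 (-0.55 to 0.34). Slc25a11 had 7103 scaled reads in HF and 5805 in RD at ZT18, and 7038 in HF and 6073 in RD at ZT6, folds of 0.29 (0.24 to 0.34) and 0.21 (0.16 to 0.27), and it missed the threshold (edgeR adjusted p = 0.053). The 9 nucleotide, cofactor and vitamin carriers had medians of 0.01 at ZT18 and 0.16 at ZT6. Among the amino acid carriers only Slc25a22 was 1.5-fold higher at a mean of at least 50, and Slc25a12 had 14657 scaled reads in HF and 13754 in RD at ZT18 and 14643 in HF and 14659 in RD at ZT6, folds of 0.09 and -0.00.

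Beside Slc25a28, which had -0.50 at ZT18, the 3 lowest folds of HF over RD at each time were those of 4 members. Slc25a25, an ATP-Mg/phosphate carrier, had a fold of -0.49 (-0.63 to -0.35) at ZT18 and 0.09 (-0.10 to 0.28) at ZT6. The orphan Slc25a45 had -0.53 (-1.23 to 0.12) at ZT18 and -0.29 (-0.91 to 0.31) at ZT6, intervals that include no difference. At ZT6 the mitochondrial glycine carrier gene Slc25a38, which heme synthesis needs, had -0.34 (-0.57 to -0.12), and Slc25a44, a carrier of branched-chain amino acids, had -0.19 (-0.32 to -0.06). At ZT18 their folds were -0.13 and -0.19. Red blood cell markers were also lower in HF at both times, as given above, and their part in the Slc25a38 level was not tested. Over the 36 members with a mean of at least 50, 17 were higher in HF at both times, 6 lower at both and 13 opposite, so 63.9% had 1 sign at both times, against 67.9% of all genes of that level.

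**Figure D3:**
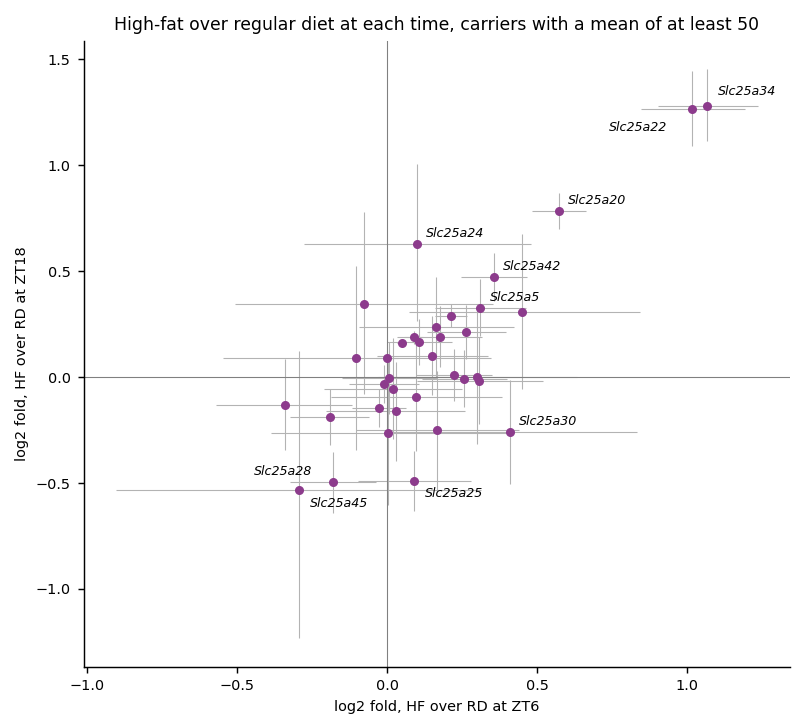
HF over RD log2 fold at ZT18 (vertical) against that at ZT6 (horizontal) for the 36 carriers with a mean of at least 50, each from 1 library per group, with 95% counting intervals as bars. Slc25a34, Slc25a22 and Slc25a20 lie apart from the rest at the upper right, and Slc25a25 and Slc25a30 lie on opposite sides of 0 at the 2 times.

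The other transport and import genes gave a frame for these values. Of 45 listed genes, 44 were measured and tested. For HF over RD edgeR called 3 of the 44 higher and 0 lower, the uncoupling protein genes Ucp3 (log2 fold 1.35, adjusted p = 0.0018) and Ucp2 (0.57, adjusted p = 0.0019), whose products are SLC25-fold proteins under other symbols, and the cyclophilin gene Ppif (0.34, adjusted p = 0.032). Ucp3 had 6642 scaled reads in HF and 1557 in RD at ZT18, and 3398 in HF and 2263 in RD at ZT6, so its difference was wider at ZT18. The median fold of the 44 was 0.09 at ZT18 and 0.05 at ZT6. The lowest at ZT18 were Tomm6, a small subunit of the outer membrane import pore, at -0.50 and the sideroflexin gene Sfxn3 at -0.46, and none of the 16 carrier import genes was called.

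The promoter of Slc25a34 is shown because this gene had the largest HF over RD fold among the members called. The window holds the 250 bases before the RefSeq start in GRCm38.p6, chr4:141623835-141624084 on the minus strand, 5′ to 3′. The bases just after this start did not match an annotated transcript of the gene, so the position of the start is uncertain. Capitals mark the 1 match to AGGTCA, the half-site bound by nuclear receptors such as PPARs and RORs, here read on the opposite strand and beginning 119 bases before the start.
Slc25a34: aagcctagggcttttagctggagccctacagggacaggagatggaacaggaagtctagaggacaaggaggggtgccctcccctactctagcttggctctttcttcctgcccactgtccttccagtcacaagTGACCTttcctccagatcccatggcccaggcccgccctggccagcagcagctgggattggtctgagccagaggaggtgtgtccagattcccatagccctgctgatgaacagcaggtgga

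Windows were found for 35 members. Searched on both strands over the 250 bases, AGGTCA occurred in 14.0% of all 32851 windows and in those of 4 members, Slc25a34, Slc25a39, Slc25a45 and Slc25a47. Slc25a22 and Slc25a20 had no match. The direct repeat of this half-site with 1 base between the copies occurred in 0.0335% of windows and in none of the members. A match is a description of the letters, and no match says only that they are not in this window.

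Time of day separated a second small group. With the HF and RD diets as replicates, edgeR called 3 of 39 members tested, all higher at ZT18, where 1.40% of all genes were called higher, 0.811% lower and 2.21% in either direction. They were Slc25a36, Slc25a30 and Slc25a25. DESeq2, and edgeR with the ZT18 HF.NOB library added, called the same 3, where they called 0.559% and 4.45% of all genes. The fit over all 6 libraries called 0 members and 1 gene in all (0.00667%), with 528 genes at an unadjusted p under 0.05. As for diet, the test has 2 libraries a group and 1 residual degree of freedom.

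Slc25a36 encodes a carrier of pyrimidine nucleotides, which mitochondrial DNA and RNA synthesis need. It had at ZT18 2585 scaled reads in HF.NOB, 2315 in HF and 2369 in RD, and at ZT6 1456 in HF.NOB, 1404 in HF and 1415 in RD. Without any length subtraction, the 3 libraries of each time were close to each other and far from those of the other time. The ZT18 over ZT6 fold was 0.83 (0.73 to 0.93) in HF.NOB, 0.72 (0.62 to 0.82) in HF and 0.74 (0.64 to 0.85) in RD, and edgeR gave 0.74 (adjusted p = 3.8e-05). The HF.NOB fold was smaller, with the same sign, after subtracting genes of similar length, as given further below. An antisense gene, Gm16185, overlaps it and had 357, 334 and 342 scaled reads in HF.NOB, HF and RD at ZT18 and 33.3, 178 and 184 at ZT6. Whether reads were counted by strand is not given in the sources used here, so reads of both genes cannot be told apart where they overlap.

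Slc25a30, an uncoupling-protein-like carrier first described in kidney, had the largest folds by time. Its levels were 242 scaled reads in HF.NOB, 287 in HF and 344 in RD at ZT18, and 60.0 in HF.NOB, 137 in HF and 103 in RD at ZT6. No ZT6 library reached any ZT18 library. The ZT18 over ZT6 fold was 1.99 (1.55 to 2.5) in HF.NOB, 1.07 (0.77 to 1.38) in HF and 1.73 (1.38 to 2.12) in RD, and edgeR gave 1.39 over HF and RD (adjusted p = 0.0003).

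Slc25a25, the calcium-dependent ATP-Mg/phosphate carrier that adjusts the adenine nucleotide pool of the matrix, had at ZT18 829 scaled reads in HF.NOB, 787 in HF and 1106 in RD, and at ZT6 796 in HF.NOB, 557 in HF and 523 in RD. In HF.NOB muscle the 2 times were nearly level. The ZT18 over ZT6 fold was 0.06 (-0.09 to 0.21) in HF.NOB, 0.50 (0.34 to 0.66) in HF and 1.08 (0.91 to 1.25) in RD, and edgeR's fit over HF and RD gave 0.80 (adjusted p = 0.0011). Naif1, which overlaps Slc25a25 on the other strand, averaged 124 scaled reads and ranged from 107 to 139.

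Beyond these 3, the carriers differed little by time in HF and RD. The median fold of the 46 members was -0.01 in HF, with 21 higher and 25 lower, and -0.01 in RD, with 23 higher and 23 lower. Over all genes the medians were 0.00 and -0.01, with 49.6% and 47.1% of genes higher. Members at least 1.5-fold higher numbered 3 in HF, where 12.2% of all genes were, and 6 in RD, where 11.3% were, and those at least 1.5-fold lower numbered 2 in HF, where 10.2% were, and 3 in RD, where 12.2% were. Among members with a mean of at least 50, none was 1.5-fold lower at ZT18 in either diet. Without overlap between all 3 ZT18 and all 3 ZT6 libraries, 3 members lay above (6.52%, against 5.58% of all genes), Slc25a36, Slc25a30 and the glutathione-linked Slc25a40, and 3 below (6.52%, against 5.43% of all genes), Slc25a33, Slc25a53 and Slc25a21, of which only Slc25a33 averaged at least 50 scaled reads. Slc25a21 had 0 to 3 reads in each library before scaling, so its separation is not read.

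Slc25a40 had 179, 154 and 186 scaled reads in HF.NOB, HF and RD at ZT18 and 132, 130 and 129 at ZT6. The ZT6 values were almost equal, and the edgeR fold of 0.39 missed the threshold (adjusted p = 0.36). Its counterpart Slc25a39 had 1184, 1231 and 1063 scaled reads in HF.NOB, HF and RD at ZT18 and 1755, 1207 and 1005 at ZT6, with no separation by time. The lowest folds by time were those of Slc25a45 at -0.41 (-1.10 to 0.24), the folate carrier gene Slc25a32 at -0.39 (-0.66 to -0.12) and Slc25a23, another ATP-Mg/phosphate carrier, at -0.23 (-0.39 to -0.08) in HF. In RD the lowest were Slc25a22, Slc25a42 and Slc25a24, each at -0.24. Of the 44 other transport and import genes edgeR called 1 higher at ZT18, Ucp2 (log2 fold 0.56, adjusted p = 0.0040), and 0 lower.

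The promoters of Slc25a36 and Slc25a25 are shown because both rose at ZT18 and both windows hold the full cyclic AMP response element TGACGTCA. They are the 250 bases before a RefSeq start in GRCm38.p6, chr9:97111042-97111291 for Slc25a36 and chr2:32424067-32424316 for Slc25a25, the latest of its 3 starts along the gene, both on the minus strand and written 5′ to 3′. The bases just after the start matched an annotated transcript for Slc25a36 but not for this start of Slc25a25, whose position is therefore uncertain. Capitals mark TGACGTCA, beginning 161 bases before the start of Slc25a36 and 150 bases before that of Slc25a25. In Slc25a36 they also mark CACGTG, the E-box bound by CLOCK and BMAL1, beginning 187 bases before the start.
Slc25a36: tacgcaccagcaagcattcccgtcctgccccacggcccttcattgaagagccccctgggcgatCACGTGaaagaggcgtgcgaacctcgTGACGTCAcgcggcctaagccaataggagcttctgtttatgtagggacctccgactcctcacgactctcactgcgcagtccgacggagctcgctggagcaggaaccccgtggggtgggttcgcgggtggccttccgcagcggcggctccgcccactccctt
Slc25a25: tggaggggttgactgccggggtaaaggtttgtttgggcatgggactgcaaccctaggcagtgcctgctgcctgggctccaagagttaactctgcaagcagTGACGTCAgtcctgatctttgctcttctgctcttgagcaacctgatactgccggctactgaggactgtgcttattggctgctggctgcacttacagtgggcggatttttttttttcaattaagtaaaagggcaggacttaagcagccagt

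TGACGTCA, which reads the same on both strands, occurred in 1.55% of all windows and in those of 2 members, Slc25a36 and Slc25a25. In Slc25a25 it was found at 1 of the 3 starts, and the windows of the other two held no match. CACGTG, also the same on both strands, occurred in 6.02% of all windows and in those of 7 members, among them Slc25a36, Slc25a33 and Slc25a13. The D-box TTATGTAA, bound by clock output factors of the PAR bZIP family, occurred in 0.819% of windows and in none of the members, and the window of Slc25a30 held none of these motifs.

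Nobiletin was compared with HF at each time. With the 2 times as replicates over all 6 libraries, edgeR called 0 of 39 members and 0 of 14988 genes (0.00%), with 348 genes at an unadjusted p under 0.05, and 1 member among them, Slc25a30 (log2 fold -0.71, unadjusted p = 0.042, adjusted p = 0.77). DESeq2 called 0 genes, with 226 at an unadjusted p under 0.05, and edgeR on the HF and HF.NOB libraries alone called 0, with 573. All further values of this contrast are folds between single libraries. HF is the denominator of these folds and the numerator of those over RD, so both sets share the HF libraries.

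At ZT18 most carriers had folds just below 0. The median fold was -0.10, with 13 members higher and 33 lower, against a median of 0.00 over all genes, of which 49.9% were higher. Among the 36 with a mean of at least 50, 12 were higher and 24 lower, with a median of -0.06. In the same comparison 7 of 8 muscle fibre markers were higher (median 0.30), and all 7 macrophage and leukocyte markers (median -0.72), all 6 adipocyte markers (median -0.58), all 5 red blood cell markers (median -0.35) and all 8 liver markers were lower. Their part in the carrier levels was not tested. At this time 2 members were at least 1.5-fold higher, where 9.47% of all genes were, and 4 at least 1.5-fold lower, where 12.5% were, of which 1 in each direction had a mean of at least 50. Slc25a24 had 116 scaled reads in HF.NOB and 179 in HF, a fold of -0.63 (-0.98 to -0.28), and in RD it stood at 115. Slc25a45 had 65.0 scaled reads in HF.NOB and 37.2 in HF, a fold of 0.79 (0.19 to 1.45). In both genes it was the HF library that stood apart from the other libraries of that time.

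The members called by diet had folds of both signs between HF.NOB and HF. At ZT18 Slc25a34 had a fold of -0.26 (-0.39 to -0.14), Slc25a22 of -0.26 (-0.40 to -0.13), Slc25a20 of -0.27 (-0.35 to -0.20), Slc25a42 of -0.16 (-0.26 to -0.06), Slc25a5 of -0.28 (-0.41 to -0.15) and Slc25a28 of 0.30 (0.15 to 0.44). These members were chosen for their difference between HF and RD and the same HF libraries enter both folds, so the direction is not read. At ZT6, Slc25a34 had -0.19, Slc25a22 -0.33 and Slc25a42 -0.48, and Slc25a20 had 0.22, Slc25a5 0.63 and Slc25a28 0.51. Minus the median of genes of similar longest transcript these ZT6 folds were -0.41, 0.08 and -0.45, and 0.01, -0.03 and 0.55, and with the median length the sign was opposite for Slc25a34, Slc25a22 and Slc25a5. HF.NOB was above RD for Slc25a34, by 1.02 (0.85 to 1.19) at ZT18 and 0.88 (0.70 to 1.06) at ZT6, and for Slc25a22, by 1.0 (0.83 to 1.18) and 0.69 (0.50 to 0.88). With genes of similar longest transcript subtracted the ZT6 folds over RD were 0.64 and 1.10. The RD libraries of these folds are those by which both members were chosen, so this direction is not read either.

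At ZT6 the ADP/ATP and phosphate carriers stood above their HF levels in HF.NOB muscle. Slc25a4 had 145431 scaled reads in HF.NOB, 93885 in HF and 90815 in RD, and at ZT18 it had 90705, 92428 and 82626. The ZT6 HF.NOB library was thus far above the 5 others, which lay within 1.14-fold of each other. Slc25a3 had 30180.3 scaled reads in HF.NOB, 19222 in HF and 18077 in RD at ZT6, and 19568, 20315 and 17818 at ZT18, the same arrangement.

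The HF.NOB over HF fold at ZT6 was 0.63 (0.62 to 0.64) for Slc25a4, 0.65 (0.62 to 0.68) for Slc25a3 and 0.63 (0.51 to 0.76) for Slc25a5. Genes of a similar longest transcript had median folds of 0.41 beside Slc25a4, -0.07 beside Slc25a3 and 0.66 beside Slc25a5, which leaves 0.22, 0.72 and -0.03. With the median length of each gene's transcripts the remainders were 0.55, 0.41 and 0.33. The sign of the remainder of Slc25a5 thus depended on the length assumed, and its size in all 3 did.

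Other members in that comparison stood at differing distances from genes of similar length. Slc25a39 (0.54, peers 0.51), Slc25a11 (0.48, peers 0.51) and the citrate carrier gene Slc25a1 (0.61, peers 0.51), which was named after its values were seen, stood near their peers of similar longest transcript. Their median transcripts were much shorter, at 767, 768 and 752.5 nt, so this is read for the longest transcript only. Slc25a25 (0.51, peers -0.05) and Slc25a28 (0.51, peers -0.05) stood above theirs, by 0.56 and 0.55, or by 0.39 and 0.27 with the median length. Slc25a12 had a fold of -0.14 (-0.18 to -0.10), with peers at -0.54, and was above them by 0.40 with the longest transcript but below by 0.35 with the median length.

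The lowest folds of HF.NOB over HF at ZT6 were those of Slc25a30, Slc25a32 and Slc25a37. Slc25a32 had 168 scaled reads in HF.NOB and 284 in HF, a fold of -0.76 (-1.07 to -0.45) beside -0.42 for genes of its length. Slc25a37, the mitoferrin of erythroid cells, had 677 in HF.NOB and 1061 in HF, a fold of -0.65 (-0.80 to -0.49) beside -0.42. It was lowest in this library, which had the highest red blood cell marker level, and a link between them was not tested. Slc25a30 stood apart from its peers, with a fold of -1.17 (-1.71 to -0.69) beside 0.03, a remainder of -1.20 or, with the median length, -1.64.

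**Figure D4:**
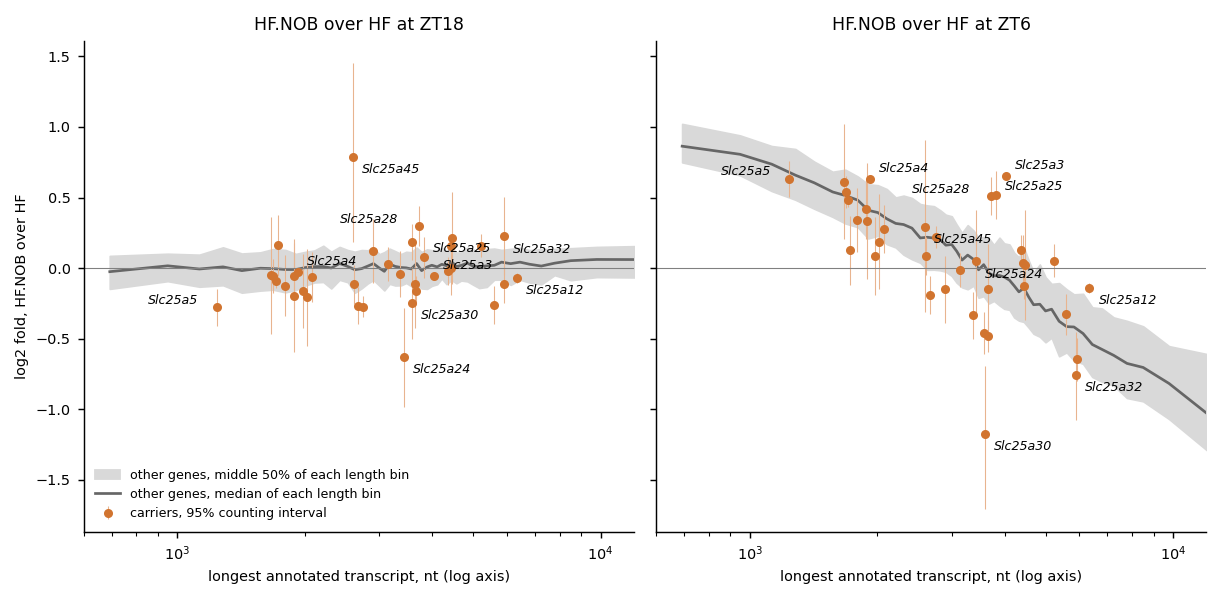
HF.NOB over HF log2 fold against the longest annotated transcript (nt, log axis) at ZT18 (left) and ZT6 (right), for the 36 carriers with a mean of at least 50 (points, 95% counting intervals) and for other protein-coding genes of that level (line, median of each length bin, and band, middle 50%). At ZT6 the other genes slope downward with length and most carriers lie near the line, with Slc25a30 1.20 below it and Slc25a3 0.72 above it, while at ZT18 the line is flat.

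Over the family, the ZT6 median fold was 0.07, with 27 higher and 19 lower, and -0.07 after subtracting the fold of genes of similar longest transcript, with 19 higher and 27 lower. The corresponding medians over all genes tested were 0.00 and -0.07, with 50.6% and 44.1% of genes higher. In all, 6 members were at least 1.5-fold higher, where 20.9% of all genes were, and 7 at least 1.5-fold lower, where 22.4% were. With that length subtracted 2 were higher, where 11% of all genes were, and 6 lower, where 21.4% were, of which only Slc25a3 and Slc25a30 had a mean of at least 50. With the median length, the remainder of Slc25a3 given above was under 1.5-fold. The 44 other transport and import genes had a median of 0.43 in this comparison and of 0.04 after the subtraction. Among them the small import chaperone gene Timm13 was at 1.03 (0.38 after the subtraction) and Tomm7 at 1.0 (0.25), and the sideroflexin gene Sfxn2 was at -0.35 (-0.06).

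The ZT18 over ZT6 folds within HF.NOB muscle carried the same length dependence in reverse. The median of the 46 members was -0.15, or 0.01 after subtracting genes of similar length, against -0.01 and 0.06 over all genes. In all, 5 members were at least 1.5-fold higher, where 23.4% of all genes were, and 6 at least 1.5-fold lower, where 21.4% were. Slc25a4 (-0.68), Slc25a5 (-0.65), Slc25a33, a pyrimidine nucleotide carrier (-0.64), and Slc25a3 (-0.63) were lowest, beside peers at -0.44, -0.67, -0.44 and 0.05. Slc25a30, Slc25a36 and Slc25a32 (0.60, peers 0.41) were highest. After the subtraction Slc25a30 was at 2.02, Slc25a36 at 0.52 and Slc25a25, nearly level by time, at 0.06.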

How the data were processed

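Total RNA of frozen calf muscle was sequenced, and reads were aligned to mm10 with TopHat2 2.0.12 by the authors, who name Cufflinks 2.2.1 for abundance. The deposited table holds a signal per gene and library, which is a read count multiplied by 1 factor per column. Dividing by the value of 1 read (0.956 to 1.33) returned whole reads within 0.001 for 100% of values, so counts were analysed in place of the Cufflinks values assumed beforehand. Which tools counted and scaled the reads, and whether a library pooled mice, is not given in the sources used here. Their legend speaks of several samples, while 1 column per condition was analysed.

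IDs were matched to GENCODE M21 without their version (99.4% matched). Members and gene lists were chosen with earlier results of these data known. Folds used a pseudocount of 1 and genes with a mean of at least 1, a 1.5-fold threshold and exact 95% intervals of the ratio of both counts. The length adjustment subtracted the median fold of non-member coding genes averaging 50 or more in the same of 50 length bins. Recovered reads were tested in edgeR 4.0.16 (quasi-likelihood, additive in diet and time, Benjamini-Hochberg) and DESeq2 1.42.0 under R 4.3.3, with Python 3.11.15. Low-count genes were filtered in edgeR. Steps were tested on simulated data.

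Named genes were the 6 highest means, for each of 7 comparisons the 3 members at either end of the folds among those averaging 50 or more, every member a fit called, 4 isoform pairs, and the 2 highest and 2 lowest of the other transport and import genes. Alternatives were 3 scalings, pseudocounts of 0.1 and 5, minimum means of 10 and 50 or none, 2 transcript lengths, a 2-fold threshold and other library sets. Promoter sequences are RefSeq's for GRCm38.p6.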

Additional observations from a re-analysis of the deposited data

Results flagged for a closer look

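There were 3 carriers with folds of opposite sign between HF.NOB and HF at the 2 times, with both counting intervals away from 0 and 1 of the folds past 1.5-fold. The difference between the times was not tested, since each fold has 1 library per group. For Slc25a4 the fold was -0.03 at ZT18 and 0.63 at ZT6, a difference of -0.66. For Slc25a3 it was -0.05 and 0.65, a difference of -0.70, and for Slc25a5 -0.28 and 0.63, a difference of -0.91. All 3 rest on the ZT6 HF.NOB library, whose folds follow transcript length.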

How the results depend on the processing

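The medians of the 7 comparisons stayed within the medians of the members' counting bounds under every alternative run. Those bounds hold the counting error of single members and are wide for a family median, so they do not show that it was stable. For HF.NOB over HF at ZT6 the median changed sign, from 0.07 to -0.07 with the longest transcript length subtracted. For HF.NOB over HF at ZT6, 13 members were 1.5-fold higher or lower, against 4 at a 2-fold threshold, 7 with a minimum mean of 10 or 50 and 8 with TMM scaling, with the total without mitochondrially encoded and top 20 genes and with either length subtracted. At ZT18 there were 6, against 1 at 2-fold, 3 with a pseudocount of 5 or a minimum mean of 10 and 2 with one of 50. For HF over RD at ZT6 there were 9, against 4 at 2-fold, 5 with a pseudocount of 5, 3 with a minimum mean of 10 and 2 with one of 50, and at ZT18 there were 8, against 5 at 2-fold and 4 with a pseudocount of 5 or either minimum mean. For ZT18 over ZT6 there were 11 in HF.NOB, against 1 at 2-fold, 6 with a pseudocount of 5, 7 with a minimum mean of 50 and 7 with the longest transcript length subtracted. There were 5 in HF, against 3 at 2-fold or with a pseudocount of 5 and 2 with either minimum mean, and 9 in RD, against 5 at 2-fold or with a pseudocount of 5, 4 with a minimum mean of 10 and 3 with one of 50. Of 6 members called for HF over RD, DESeq2 called 3 and the fit over all 6 libraries 0, and of 3 called for ZT18 over ZT6 the latter fit called 0, and the cause was not tested. Of the members' folds past 1.5-fold that were rerun, only those of Slc25a5 reversed, with the longest transcript length subtracted, to -0.026 for HF.NOB over HF at ZT6 and 0.020 for ZT18 over ZT6 in HF.NOB. Smaller folds changed sign too, among them those of Slc25a11, Slc25a12 and Slc25a22 for HF.NOB over HF at ZT6. The alternatives on counts other than the 2-fold threshold and the longest length, the named members' scalings and the comparison without the ZT6 HF.NOB library were chosen after seeing the data. The edgeR and DESeq2 fits were additive, comparing diets with time as a covariate and times with diet as a covariate. No test was made within a single time or a single diet. No paired analysis by replicate was possible because the labels carry no replicate numbers. With 1 library per condition, no replicate could be left out, and members under 50 scaled reads allow no fold to be read.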
